A study of Sus scrofa with 19 samples.

Results

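Maternal LPS was compared with maternal saline within the fish oil diet, using 8 of the 19 whole adrenal glands measured, each from a male pig of a different sow. The 4 piglets labelled fish oil and LPS were numbers 10, 19, 20 and 24, and the 4 labelled fish oil and saline were numbers 9, 11, 13 and 18. The comparison ran over the 20668 of 27558 probe sets whose mean log2 signal across all 19 arrays lay above the lowest 25%. All sows ate their diet from gestation day 75, and the LPS or saline was given on gestation day 112. Both groups share what came later: weaning at 21 days, an LPS challenge of the piglet itself at 28 days, and death 2 hours after that challenge. No piglet went unchallenged, so each difference lies between glands that were all taken after an LPS challenge. The response to that challenge itself could not be measured. The piglets on the control diet (3 after maternal LPS, 3 after saline) and on microalgae (2 and 3) served to ask whether the effect differed by diet, and they also entered the filter and the estimate of the spread. Breed, dose and diet composition are not given in the sources used here.

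LPS, lipopolysaccharide, is the outer membrane component of Gram-negative bacteria that the receptor TLR4 detects together with CD14 and LY96. One branch of that receptor's signalling runs through MYD88 to inflammatory cytokines such as IL6 and TNF. The other runs through the adaptor TICAM2 to type I interferon, which acts through JAK kinases, STAT2 and IRF9 on the interferon-stimulated genes, an antiviral program. Fish oil supplies long-chain polyunsaturated fatty acids, which are substrates for lipid mediators of inflammation. The adrenal gland joins a cortex that makes cortisol with a medulla of chromaffin cells that makes adrenaline, and it also holds macrophages, fibroblasts and vessels.

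Across the 19 arrays, median log2 signals lay between 4.38 and 4.52 and correlations between pairs of arrays between 0.897 and 0.976. Piglet 24 had the lowest mean correlation with the others, 0.929, and the narrowest interquartile range, 2.27. Interquartile range (exact permutation p 0.857), median (0.714) and the first principal component (0.971) did not separate the 4 fish oil LPS from the 4 saline arrays. The number of arrays limits the precision, with a median SE of 0.185 log2.

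Signals are log2 values, and each gene was read by its own probe set, so levels were not compared between genes. A difference is the LPS mean minus the saline mean, its ± is the standard error of the limma fit over all 19 arrays, and a ± beside a group mean is the SD of 4 piglets. No probe set passed the Benjamini-Hochberg adjusted threshold of 0.05 over the 20668 tested. The smallest adjusted p was 0.199, for a probe set without a gene symbol (15217337, difference -1.46). All statements about single genes therefore rest on unadjusted p-values and on the 8 piglets' values. At an unadjusted limma p under 0.05, 596 probe sets were lower after maternal LPS (2.88% of those tested) and 287 were higher (1.39%). Both directions together made up 4.27%, no more than a threshold of 0.05 would pass with no difference at all. With 1 probe set for each of 9992 genes the shares were 3.06% lower and 1.41% higher. Without piglet 20 the count of higher probe sets was 524. At an unadjusted p under 0.01, 210 were lower and 47 higher. Among the 10699 tested probe sets with 1 gene symbol, the 50 with the smallest p were all lower. A gene can count more than once among them. Of these 50, 17 were of genes in the list of interferon-stimulated genes, which held 38 of the 9992 genes. The median difference over all probe sets was 0.01 and 48.9% lay below 0. The scaling of the deposited values is unknown, so this balance does not bear on a shift of whole arrays. For the gene lists that follow, the counts of lower members are to be read against 48.9%. Those lower at an unadjusted p under 0.05 are to be read against 2.88%, and those higher at it against 1.39%. Members whose groups do not overlap, with LPS lower, are to be read against 1.44%. All lists were chosen with earlier results of these data known, so these shares describe the lists and test nothing.

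**Figure D1:**
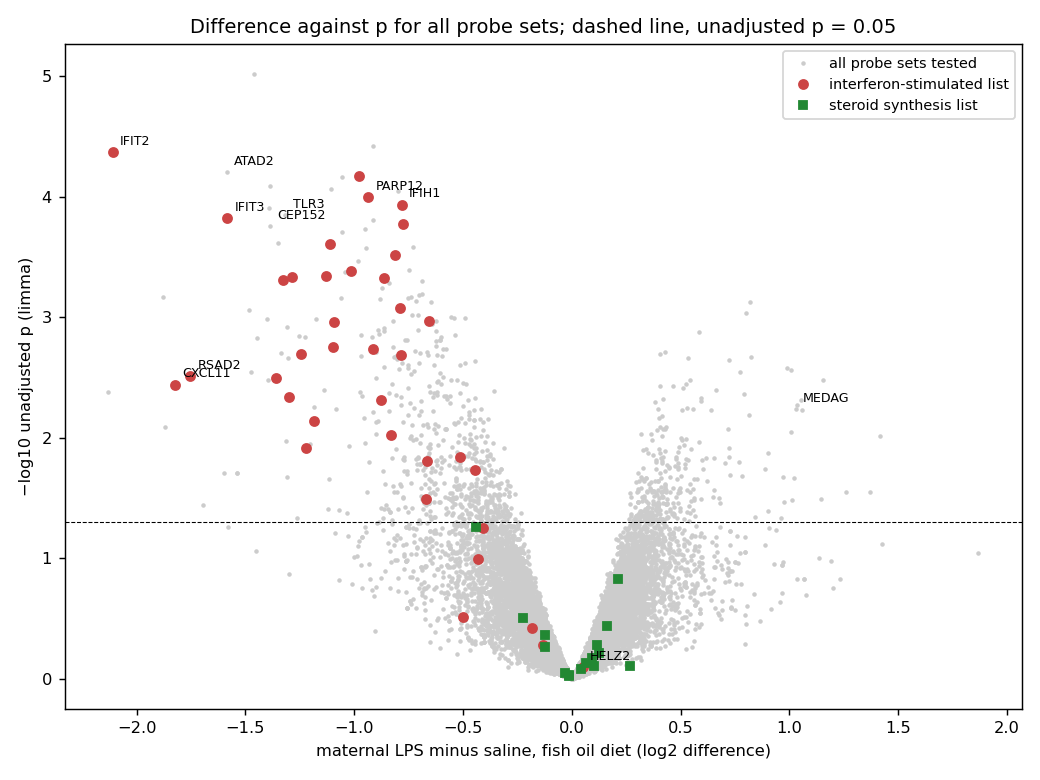
Difference between maternal LPS and saline in fish oil offspring (x axis, log2) against −log10 of the unadjusted limma p (y axis) for the 20668 probe sets tested. The 38 interferon-stimulated genes are red, the 16 steroid synthesis genes are green squares, and the dashed line marks the unadjusted threshold of 0.05. The red points lie on the left above the line for 32 of 38, and the green squares all lie below the line.

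Interferon-stimulated genes were the group with the most members lower in fish oil offspring of LPS-challenged sows. Of 74 genes listed, 39 had a probe set of their own symbol and 38 were tested. Of those 38, 37 had a lower mean after maternal LPS and 32 were lower at an unadjusted p under 0.05, where 2.88% of all probe sets were. Members at an adjusted p under 0.05 numbered 0, and the smallest was 0.206. The median difference was -0.89 log2, against 0.01 over all probe sets, and the differences ran from -2.11 to 0.05. The saline and LPS piglets did not overlap in 24 of the 38 genes, against 1.44% of all probe sets with LPS lower. The 38 genes come from the same 8 glands and are known to respond together, so they are not 38 independent observations. Because the list was chosen with earlier results of these data known, its excess over those shares is no independent support. In whole tissue, fewer cells of one type and less RNA per cell cannot be told apart.

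IFIT2, which binds viral RNA, had the largest difference of a gene with a symbol at an unadjusted p under 0.01. Its log2 signals after maternal LPS were 6.38, 7.05, 5.77 and 7.59 in piglets 10, 19, 20 and 24, and after saline 8.98, 8.86, 8.40 and 8.99 in piglets 9, 11, 13 and 18. The groups did not overlap, and piglet 20 was the lowest. The means were 6.70 ± 0.789 and 8.81 ± 0.28, a difference of -2.11 ± 0.391 or 4.32-fold lower (95% interval -2.93 to -1.29). Limma gave an unadjusted p of 4.3e-05, adjusted 0.206, and the exact permutation p was 0.0286, the smallest that 4 against 4 can give. Its relative IFIT3 was at 9.78, 9.24, 8.09 and 9.55 after LPS and at 10.85, 10.75, 10.69 and 10.70 after saline (-1.58 ± 0.33). IFIT1 was lower by a smaller amount, -1.11 ± 0.243, also without overlap.

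RSAD2, also called viperin, an enzyme that makes a chain-terminating nucleotide, had 8.78, 7.42, 6.20 and 8.39 after LPS and 9.89, 9.47, 8.96 and 9.48 after saline. The groups were separate, but piglet 10 came closest to the lowest saline piglet. The difference was -1.75 ± 0.511. The chemokine CXCL11, which draws activated T cells, was at 6.74, 5.55, 4.19 and 6.83, against 7.38, 7.96, 7.20 and 8.05 after saline (-1.82 ± 0.544). CXCL9 and CXCL10 act on the same receptor, and both were lower without overlap (-1.22 ± 0.438 and -0.51 ± 0.189). CXCL10 had the higher unadjusted limma p of that pair, 0.0144, and without piglet 20 both missed 0.05 (0.0611 for CXCL9 and 0.0747 for CXCL10).

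**Figure D2:**
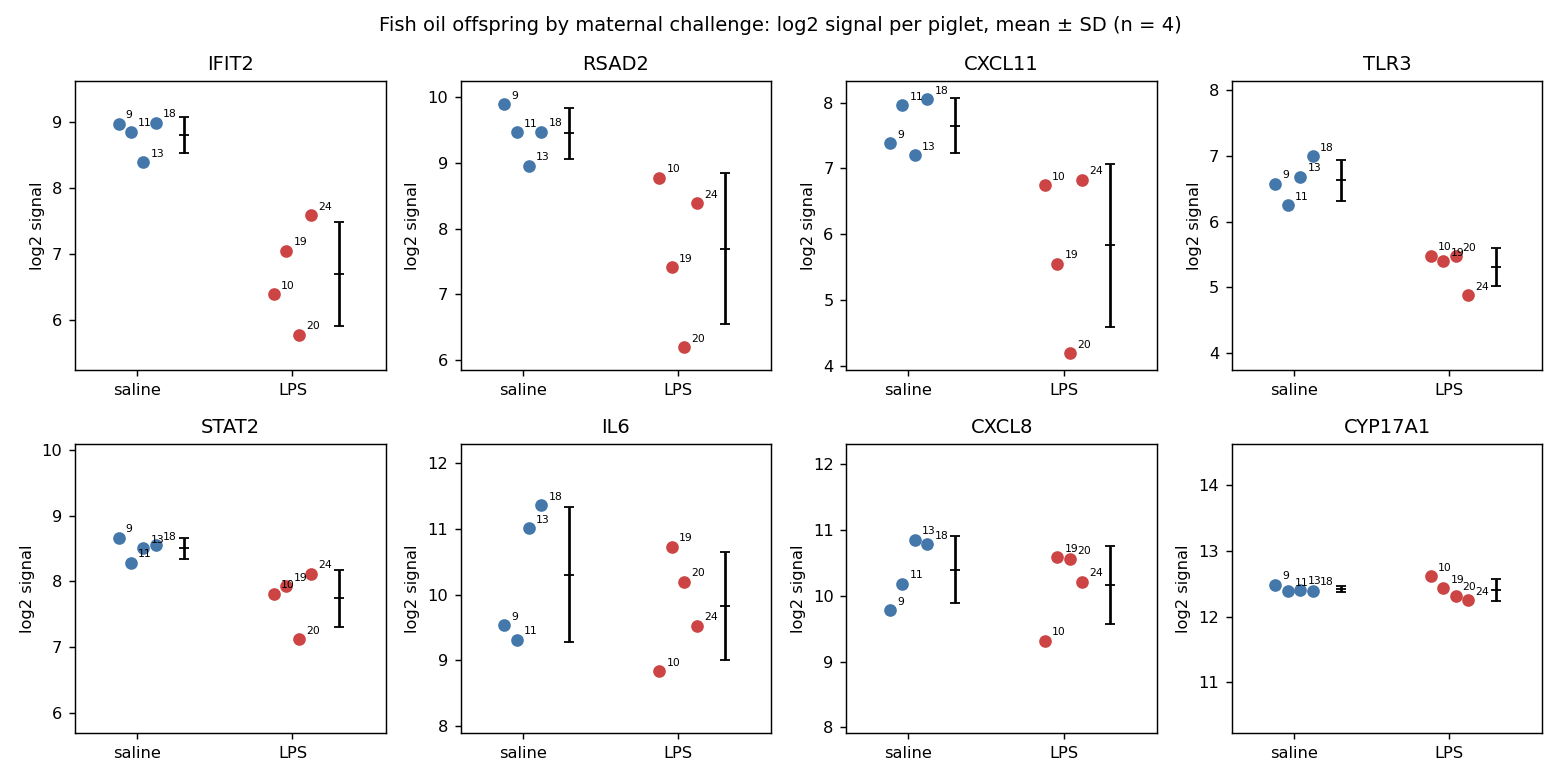
Log2 signal of 8 genes in each fish oil piglet (points, numbered), with mean ± SD beside them (n = 4 a group), saline in blue and LPS in red. Every panel spans the same number of log2 units. IFIT2, RSAD2, CXCL11, TLR3 and STAT2 separate the groups, while IL6, CXCL8 and CYP17A1 overlap.

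Antiviral effectors showed the same order of groups. The GTPase MX1 was at 10.85, 10.47, 9.56 and 10.45 after LPS and 11.19, 10.80, 11.38 and 11.45 after saline, so piglet 10 overlapped the saline range. Its difference was -0.87 ± 0.272, and that of MX2 was -1.10 ± 0.298, without overlap. OAS2, which makes the second messenger that activates RNase L, differed by -1.09 ± 0.281, whereas OAS1 differed by -0.43 ± 0.251 (95% interval -0.96 to 0.10) with overlapping groups. The guanylate-binding proteins GBP1 and GBP2 were lower by -1.30 ± 0.401 and -1.24 ± 0.344. The ADP-ribosyltransferase PARP12 was at 6.78, 6.87, 6.21 and 6.52 after LPS and 7.72, 7.18, 7.46 and 7.79 after saline (-0.94 ± 0.188). TDRD7 (-0.98 ± 0.189), PARP14 (-1.13 ± 0.263), SP110 (-0.81 ± 0.182), PNPT1 (-0.77 ± 0.163) and the ISG15 ligase HERC5 (-1.29 ± 0.3) were also lower without overlap. The members that missed the unadjusted threshold were OAS1, IFITM1 (-0.41 ± 0.2), IDO1 (-0.50 ± 0.475), TOR1B (-0.18 ± 0.205), PARP10 (-0.13 ± 0.2) and HELZ2 (0.05 ± 0.203). HELZ2 had signals near 3.23, the mean under which probe sets were left out.

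Piglet 20 had the lowest interferon-stimulated signals of the 8, but the other LPS piglets were lower than saline as well. The mean signal over the 38 genes was 7.13 in piglet 10, 7.01 in piglet 19, 6.21 in piglet 20 and 7.27 in piglet 24, against 7.97, 7.63, 7.79 and 7.98 in piglets 9, 11, 13 and 18. No LPS piglet reached the lowest saline piglet. Piglet 20 was the lowest of the 8 in 32 of the 38 genes. Counting genes below all 4 saline piglets gave 31 for piglet 10, 35 for piglet 19, 36 for piglet 20 and 27 for piglet 24. Without piglet 20, 27 of the 38 genes remained lower at an unadjusted p under 0.05, with a median of -0.77. Without piglet 24, whose array stood apart from the rest, the count was 34.

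**Figure D3:**
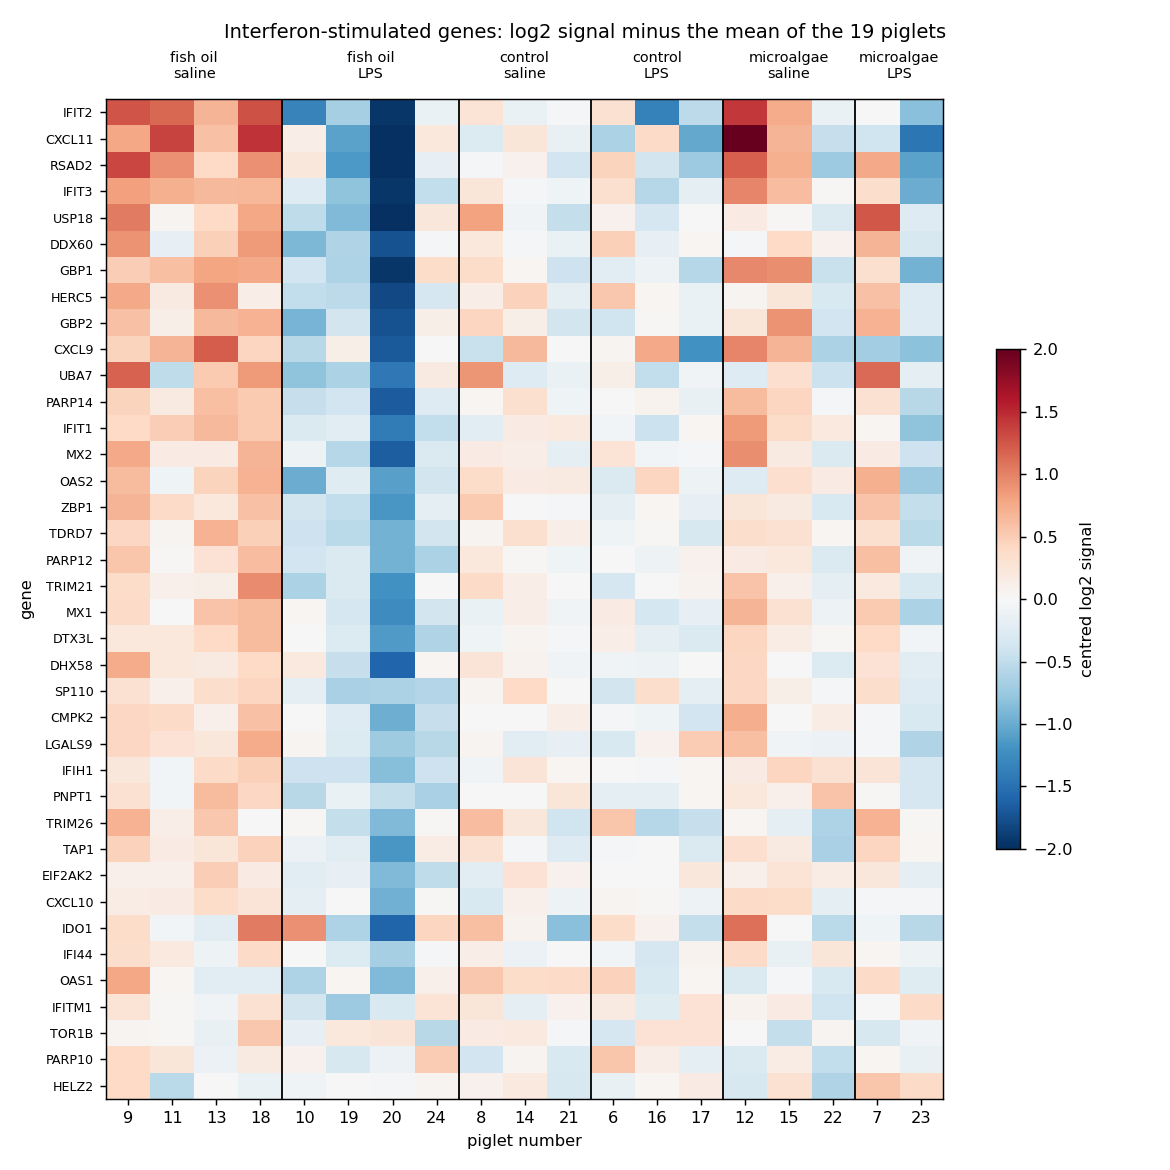
Log2 signal of the 38 interferon-stimulated genes (rows) in all 19 piglets (columns, grouped by diet and maternal challenge), each gene centred on its mean over the 19, with blue lower, red higher and the colour scale ending at ±2. The fish oil saline piglets are mostly red and the fish oil LPS piglets mostly blue, with piglet 20 the darkest, and the control piglets are pale.

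Genes of foreign nucleic acid sensing were lower in part. The list holds sensors, which start interferon production and are themselves raised by it, and other members such as the transcription factor IRF7. Of 16 tested, 11 were lower (48.9% of all probe sets were) and 7 were lower at an unadjusted p under 0.05 (2.88% of all), with a median of -0.28. TLR3, the endosomal receptor for double-stranded RNA, was at 5.48, 5.40, 5.47 and 4.88 after LPS and at 6.58, 6.25, 6.68 and 6.99 after saline. The groups did not overlap, and the difference was -1.32 ± 0.273 (2.49-fold, adjusted limma p 0.212). MB21D1, the sensor of cytosolic DNA also called cGAS, had 5.33, 4.87, 4.57 and 5.27 after LPS and 6.10, 5.68, 6.54 and 6.16 after saline (-1.11 ± 0.219). The cytosolic RNA sensor IFIH1 was lower by -0.78 ± 0.159, the Z-nucleic acid sensor ZBP1 by -1.02 ± 0.235 and the RNA-activated kinase EIF2AK2 by -0.66 ± 0.169, all without overlap. DHX58 (-0.83 ± 0.286) and the transcription factor IRF7 (-0.55 ± 0.233) overlapped, and IRF7 missed the unadjusted threshold without piglet 9, 13, 18 or 20. IFIH1, ZBP1, EIF2AK2 and DHX58, like USP18 and TAP1 of the next lists, also stand in the interferon-stimulated list. The adaptors downstream of the sensors did not differ by more than their error: MAVS -0.07, TMEM173 (STING) 0.02 and TRAF3 0.11.

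Components of the interferon receptor pathway were also lower in part. Of 15 tested, 11 were lower (48.9% of all probe sets), 6 of them at an unadjusted p under 0.05 (2.88% of all), with a median of -0.20. STAT2, the transcription factor that interferon activates, was at 7.81, 7.93, 7.12 and 8.11 after LPS and at 8.66, 8.28, 8.51 and 8.55 after saline (-0.76 ± 0.203), without overlap. IRF2, a regulator that binds the same promoter elements, had 7.04, 6.87, 6.97 and 6.63 against 7.67, 7.76, 7.79 and 7.95, a difference of -0.91 ± 0.191 that stayed at an unadjusted p under 0.05 whichever piglet was left out. USP18, which removes ISG15 from proteins and restrains the interferon receptor, differed by -1.36 ± 0.398, with piglet 24 inside the saline range. JAK2, a kinase of the interferon gamma and other cytokine receptors, differed by -0.84 ± 0.256 and IRF9 by -0.35 ± 0.141, both with overlap. IRF9 missed the unadjusted threshold without piglet 11, 18 or 24. IRF7, already counted with the nucleic acid sensing genes, also counts among these 6. The upstream kinases JAK1 and TYK2 had differences of 0.03 and 0.04, and IRF3, the factor that switches on the interferon beta gene, -0.15 ± 0.177 (95% interval -0.53 to 0.22). ISG15, IFNB1, IFNG, IFNAR1 and IFNAR2 had no probe set of a single own symbol among those tested.

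Genes that load peptides on MHC class I were lower in 14 of 18 cases (48.9% of all probe sets), 6 at an unadjusted p under 0.05 (2.88% of all), with a median of -0.33. They were the peptide transporters TAP1 (-0.67 ± 0.249) and TAP2 (-0.66 ± 0.243), the immunoproteasome subunit PSMB9 (-0.78 ± 0.247), the trimming enzymes ERAP1 (-0.50 ± 0.172) and ERAP2 (-0.73 ± 0.21), and TAPBPL (-0.41 ± 0.169). TAP1 and TAP2 did not overlap. TAP2 was at 6.75, 6.68, 5.58 and 6.82 after LPS and at 7.29, 6.89, 7.06 and 7.24 after saline. Both transporters missed the unadjusted threshold without piglet 20, as did TAPBPL without piglet 18, 20 or 24. The constant chain B2M differed by -0.19 ± 0.18, with overlap. Of 11 class II genes 6 were lower. Of these, RFX5 (-0.47 ± 0.163), a regulator that also serves class I, and the lysosomal reductase IFI30 (-0.43 ± 0.196) were so at an unadjusted p under 0.05. IFI30 missed it without piglet 9, 11, 18 or 20.

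Of 45 acute inflammatory genes 30 were lower (48.9% of all probe sets), 2 of them at an unadjusted p under 0.05 (2.88% of all), with a median of -0.10. That number of calls is near the background, and the list was not tested against the interferon-stimulated genes. IL6 was at 8.83, 10.73, 10.20 and 9.53 after maternal LPS and at 9.53, 9.31, 11.02 and 11.36 after saline, a full overlap (-0.48 ± 0.529, 95% interval -1.60 to 0.63). That interval includes differences as large as the median of the interferon-stimulated genes, so equality was not shown. The neutrophil attractant CXCL8 (-0.23 ± 0.336), TNF (-0.25 ± 0.255), the anti-inflammatory IL10 (-0.15 ± 0.166), the prostaglandin synthase PTGS2 (-0.11 ± 0.383) and the feedback inhibitor NFKBIA (-0.07 ± 0.206) also had intervals that included 0. The monocyte attractant CCL2 was at -0.54 ± 0.26 (unadjusted limma p 0.0532). The 2 genes past 0.05 were the chemokine CCL4 (-0.57 ± 0.214) and haptoglobin, HP (-0.97 ± 0.297). HP binds free haemoglobin, and had 5.29, 4.31, 5.73 and 5.46 against 6.60, 6.62, 6.06 and 5.38, with piglet 18 inside the LPS range. CCL4 missed the unadjusted threshold without piglet 9 or 13.

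Among 20 genes of LPS detection and Toll-like receptor signalling, 15 were lower (48.9% of all probe sets), 3 at an unadjusted p under 0.05 (2.88% of all), and 1 was higher at that threshold (1.39% of all). A single higher call among 20 is near the background. The 3 were TICAM2 (-0.65 ± 0.233), the kinase IRAK4 (-0.52 ± 0.19) and LY96 (-0.51 ± 0.216), each with overlapping groups. TICAM2 missed the threshold without piglet 18 or 20, IRAK4 without 10 or 13, and LY96 without 18, 20 or 24. TLR4 itself was at 4.69, 4.68, 4.76 and 5.10 after LPS and 4.88, 5.14, 5.17 and 5.29 after saline (-0.31 ± 0.259, 95% interval -0.86 to 0.23). CD14 (-0.15 ± 0.205) and MYD88 (-0.29 ± 0.169) had intervals that included 0. NOD1, the higher one, had the identical signal of 3.57 in 3 LPS piglets and 4.26 in piglet 24, close to the filter level, and it missed the threshold in 14 alternative fits, among them those without piglet 9, 11 or 24.

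Genes of steroid hormone synthesis gave no call. Of 16 genes tested 0 reached an unadjusted limma p of 0.05 in either direction, and 7 were lower (median 0.05). The groups were apart in 1 of them, TSPO, a protein of the outer mitochondrial membrane, at 4.19, 3.92, 4.15 and 3.78 against 4.51, 4.21, 4.37 and 4.69 (-0.44 ± 0.214). Of all probe sets, 1.44% were apart with LPS lower. CYP17A1, the enzyme that directs steroids toward cortisol, was at 12.62, 12.44, 12.32 and 12.25 after LPS and 12.49, 12.38, 12.41 and 12.40 after saline. Its difference was -0.01 ± 0.152 (95% interval -0.33 to 0.31), so a change of more than 0.33 log2 either way lies outside the interval. HSD3B1 (-0.03 ± 0.22), CYP21A2 (-0.13 ± 0.156) and the cholesterol receptor SCARB1 (-0.01 ± 0.218) had overlapping groups, although a second SCARB1 probe set had the opposite sign. The glucocorticoid receptor NR3C1 differed by -0.27 ± 0.208. STAR, CYP11A1, CYP11B1 and MC2R had no probe set of a single own symbol among those tested. Of 20 glucocorticoid-responsive genes 11 were lower. ANXA1 (-0.63 ± 0.179), KLF9 (-0.46 ± 0.169) and BCL6 (-0.50 ± 0.224) were so at an unadjusted p under 0.05, each without overlap (1.44% of all probe sets). KLF9 and BCL6 missed it without piglet 18 or 24. ANXA1, which mediates part of the anti-inflammatory action of glucocorticoids, had 7.07, 6.48, 6.52 and 7.30 against 7.43, 7.37, 7.73 and 7.38.

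Marker lists of the gland's cell types had medians nearer 0 than the interferon-stimulated genes. Of 14 chromaffin markers 12 were lower (median -0.33), 1 of them at an unadjusted p under 0.05: the transcription factor HAND2 (-0.85 ± 0.377), which missed it without piglet 9, 10, 11, 20 or 24. The chromaffin mean level was 5.56 to 6.18 in the LPS and 6.06 to 6.63 in the saline piglets, overlapping. DBH, the enzyme for noradrenaline, and PNMT, the enzyme that turns it into adrenaline, differed by -0.32 ± 0.463 and -0.69 ± 0.478, and TH and CHGA were not among the genes tested. With the chromaffin level as a covariate, 31 of the 38 interferon-stimulated genes stayed at an unadjusted p under 0.05, with a median of -0.86. Of 19 macrophage markers 16 were lower (median -0.23), and only the interferon-inducible lectin SIGLEC1 was so at that threshold (-0.40 ± 0.165, lost without piglet 9, 10, 19 or 20). Their mean level was 4.77 to 5.21 in LPS and 4.82 to 5.50 in saline piglets. Lymphocyte markers (6 of 19 lower), adrenocortical markers (4 of 9) and neutrophil markers (5 of 9) had 0 members at an unadjusted limma p under 0.05. The part of macrophages or chromaffin cells in the lower interferon signals was not tested beyond these values.

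**Figure D4:**
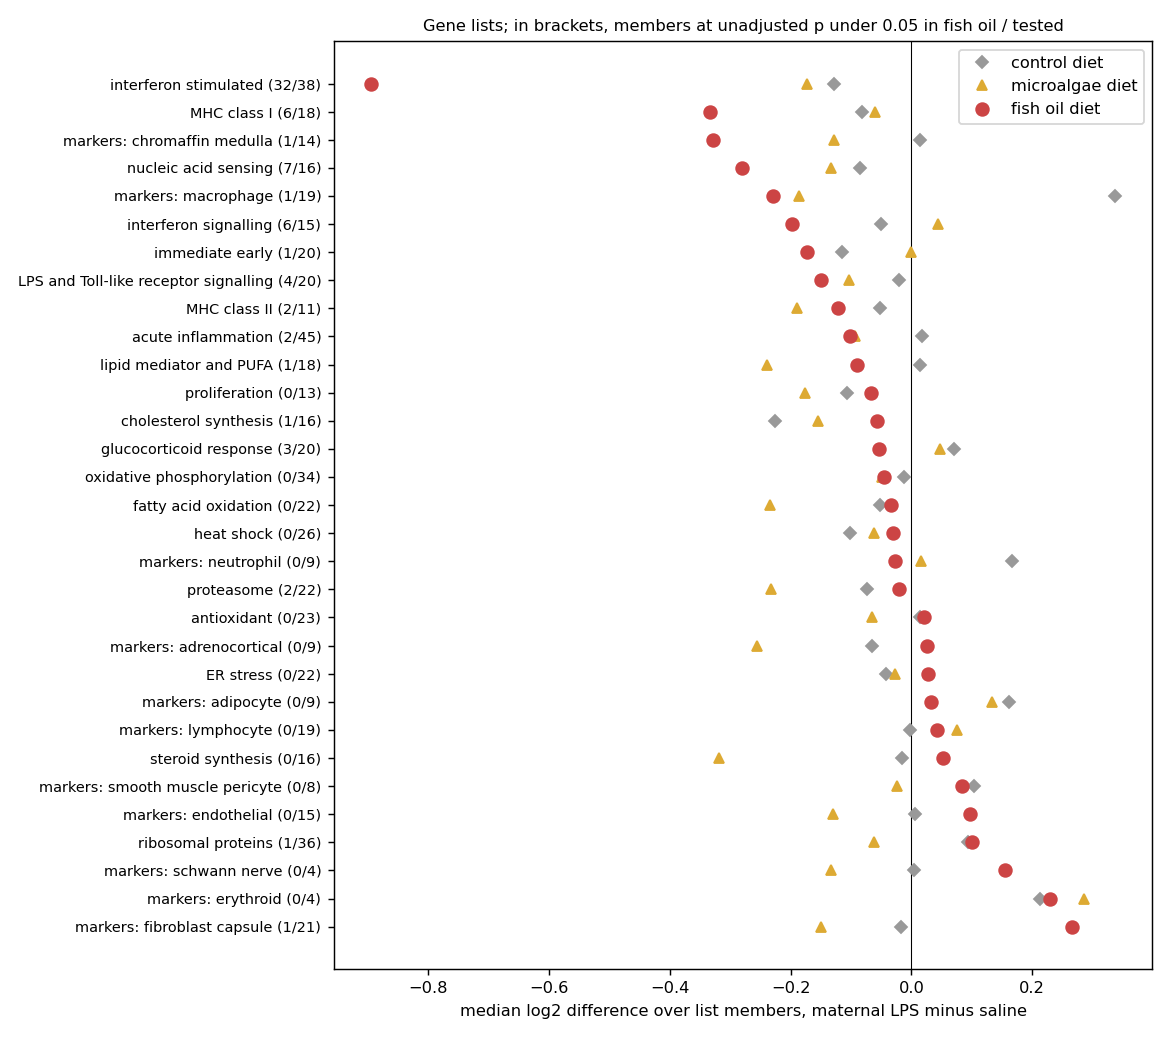
Median log2 difference (maternal LPS minus saline) over the tested members of each gene list (rows) in the fish oil, control and microalgae diets, with the number of members at an unadjusted limma p under 0.05 in fish oil and the number tested in brackets. Interferon-stimulated genes stand alone at -0.89 in fish oil, where the next lists, MHC class I and chromaffin markers, are at -0.33, and macrophage markers are at -0.23 in fish oil and 0.34 in the control diet.

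Several of the largest differences lay in genes outside the lists. By the rule of the 15 lowest at an unadjusted p under 0.01, these were ATAD2, GVIN1, CD274, LRRTM4, CEP152, RMI1 and PPP4R4. ATAD2, a bromodomain protein of chromatin, was at 5.66, 5.93, 4.65 and 5.85 after LPS and at 7.10, 6.64, 7.65 and 7.04 after saline (-1.59 ± 0.304). CD274, the immune checkpoint ligand PD-L1, was at 8.64, 8.80, 6.98 and 9.18 against 9.35, 9.55, 10.28 and 10.21 (-1.45 ± 0.385). GVIN1, a large interferon-inducible GTPase, differed by -1.48 ± 0.426. CEP152, a centriole protein (-1.39 ± 0.293), and RMI1, part of a complex that resolves DNA recombination intermediates (-1.35 ± 0.295), separated the groups too. LRRTM4, a synaptic adhesion protein, differed by -1.40 ± 0.412, and PPP4R4, a subunit of a protein phosphatase, by -1.34 ± 0.368, with LPS signals of 3.27 to 3.54 near the filter level. These 7 genes stayed at an unadjusted p under 0.05 in every alternative that tested them. They were picked for their differences in this same comparison, so neither that nor their separation is added support. Of all probe sets, 1.44% were apart with LPS lower.

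Genes higher after maternal LPS were fewer, and the differences smaller. MEDAG, a gene linked to fat cell formation, had the largest of the 15 highest by the same rule: 4.15, 5.22, 4.79 and 3.53 after LPS against 3.53, 2.76, 3.73 and 3.56 after saline. The groups overlapped at piglet 24, and the difference was 1.03 ± 0.328 (adjusted limma p 0.633). RAB30, a small GTPase of the Golgi, was at 5.71, 5.58, 5.54 and 5.13 against 4.76, 4.95, 4.93 and 4.94 (0.59 ± 0.183), without overlap. The potassium channel subunit KCNJ11 (0.64 ± 0.204), the phagosomal metal transporter SLC11A1 (0.51 ± 0.161), PDCD7 (0.51 ± 0.154), GNB3 (0.43 ± 0.145) and MYL7 (0.43 ± 0.146) were higher by less. The groups were apart in PDCD7, GNB3 and MYL7, where 0.745% of all probe sets were apart with LPS higher. These genes were picked for their differences in the same comparison, so their separation is no added support. The signals of ANGPT2 (0.72 ± 0.202), DCLRE1A (0.72 ± 0.242) and LOC100157664 (0.66 ± 0.201) were also higher, but at least 1 of the 6 groups averaged under 3.23 for each.

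Whether the effect of maternal LPS differed between fish oil and control offspring was tested as an interaction, whose effects share no arrays. No probe set passed the adjusted threshold (smallest adjusted limma p 1.0). At an unadjusted p under 0.05 the fish oil effect was the lower in 330 probe sets (1.6%) and the higher in 215 (1.04%), 2.64% together. Of the 38 interferon-stimulated genes, the fish oil effect was the lower in 37 (50.3% of all probe sets), and 17 of these were at an unadjusted p under 0.05, against that 1.6%. The median interaction was -0.75. In the control diet alone 28 of the 38 were lower after maternal LPS (49.7% of all probe sets), by a median of -0.13, and 0 reached an unadjusted limma p of 0.05, where 0.755% of all probe sets did in that direction. PARP12 (interaction -0.88 ± 0.287, p 0.00648), DDX60 (-1.42 ± 0.477), IFIT3 (-1.40 ± 0.504), HERC5 (-1.31 ± 0.458) and IFIT2 (-1.55 ± 0.598) were among the 17, p-values here being unadjusted limma values. For IFIT2 the control means were 7.19 after LPS and 7.75 after saline, with overlapping piglets. TLR3 (-0.94 ± 0.417, p 0.0372) and MB21D1 (-0.93 ± 0.335, p 0.0124) differed between the diets at that level, while STAT2 (-0.61 ± 0.31, p 0.0654) and IRF2 (-0.54 ± 0.292, p 0.0832) did not reach it.

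The levels of the 38 genes in each maternal group, which were not tested between the diets, were as follows. The mean signal of the 38 genes was 7.63 to 7.98 after saline in fish oil piglets and 7.32 to 7.58 in control piglets. After LPS it was 6.21 to 7.27 in fish oil and 7.26 to 7.46 in control piglets, where piglet 24 passed the lowest control piglet. By group means, fish oil exceeded control after saline in 36 of 38 genes (51.2% of all probe sets; median 0.34) and lay below control after LPS in 38 of 38 (50.7% of all; median -0.44). These counts describe the same arrays as the interaction and are no second test.

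Microalgae offspring, with only 2 piglets after maternal LPS, gave a less certain contrast. Of the 38 interferon-stimulated genes 26 were lower there (46.7% of all probe sets; median -0.17), 4 at an unadjusted p under 0.05 (5.81% of all probe sets), and HELZ2 was higher at that threshold (5.86% of all). The 4 were IFIT1, IFIT2, CXCL11 and PNPT1. The LPS piglets 7 and 23 had mean signals over the list of 7.72 and 7.04, and the saline piglets 7.85, 7.68 and 7.23, so the groups overlapped. The fish oil effect was lower than the microalgae effect in 38 of 38 members (52.7% of all probe sets), 12 at an unadjusted limma p under 0.05 (4.05% of all, and 3.18% in the other direction), with 0 probe sets past the adjusted threshold (smallest 0.584). The whole-array counts of this interaction, 837 lower and 658 higher, had no stable balance. They turned to 580 and 890 after centring each array on its median, 770 and 864 after quantile normalization, 1087 and 1162 with array weights, and 1187 and 1403 without piglet 24. TLR3 was lower with microalgae too (-1.13 against -1.32 with fish oil), as was IRF2 (-0.60).

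**Figure D5:**
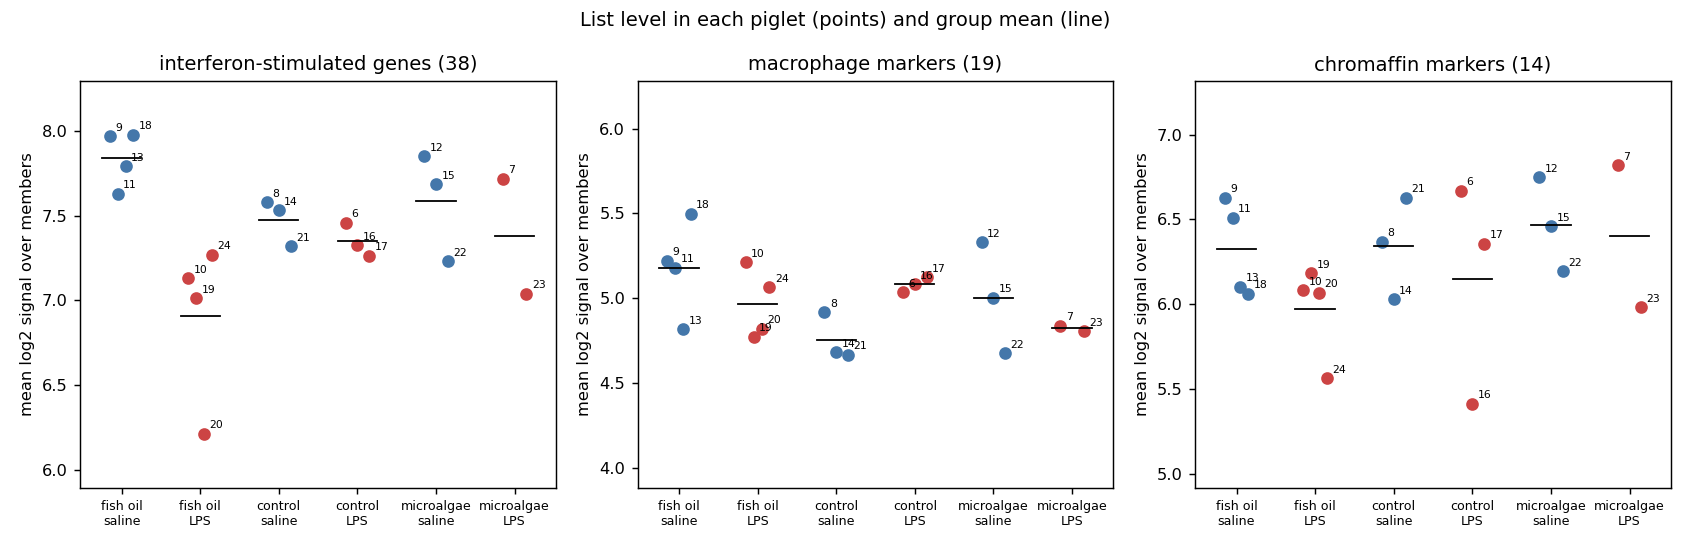
Mean log2 signal over 38 interferon-stimulated genes, 19 macrophage markers and 14 chromaffin markers in each piglet (numbered points) of the 6 groups, saline in blue, LPS in red, with a line at the group mean. The fish oil LPS piglets lie at 6.21 to 7.27 and the fish oil saline piglets at 7.63 to 7.98 in the first panel, while the groups overlap for both marker lists in fish oil.

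The genes with the smallest interaction p-values were not members of the interferon-stimulated list used here. By the rule of the 10 smallest interaction p-values, the genes were SBSPON, LOC100154752, GP91-PHOX, BCL2L11, LOC100736818, ANXA1, MDGA1, KCNA6, LY96 and SIT1. They were picked for these p-values from 10699 probe sets, and none passed the adjusted threshold. The separation and signs of their values are therefore no added support. GP91-PHOX, the catalytic subunit of the phagocyte NADPH oxidase, was 0.83 higher after maternal LPS in control offspring (5.06, 4.87 and 4.54 against 3.81, 4.40 and 3.75). In fish oil offspring it was at 4.24, 4.24, 4.47 and 4.71 against 4.61, 4.53, 4.36 and 4.93 (interaction -1.03 ± 0.266, unadjusted limma p 0.0012). LY96 had the same signs, 0.62 in control and -0.51 in fish oil offspring (interaction -1.13 ± 0.33). The macrophage list was 0.34 higher by its median in the control diet, with 1 of 19 lower (49.7% of all probe sets). Only 1 member reached an unadjusted limma p under 0.05 there, a higher one (0.982% of all probe sets). The list's interaction was negative for all 19 (50.3% of all probe sets), at an unadjusted p under 0.05 (1.6% of all) for C1QC (-1.29 ± 0.495), MSR1 (-0.79 ± 0.316) and MRC1 (-0.90 ± 0.396). The part of macrophages in the interferon interaction was not tested. SBSPON, a matrix protein, ran the other way, 0.42 in fish oil and -0.60 in control offspring (interaction 1.02 ± 0.236).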

How the data were processed

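Whole adrenal RNA of 19 piglets was hybridised to 1-colour Affymetrix arrays. The authors' deposited log2 signals, 1 column per piglet, were used as deposited. They came from Transcriptome Analysis Console 4.0, per the submitters' processing notes. Summarization and normalization are not given in the sources used here, and base 2 was inferred from the range, 0.263 to 13.5. Of 27558 probe sets 13157 have 1 symbol, 523 several and 13878 none in the array annotation. After 7 symbols were updated, 12841 matched RefSeq by Entrez ID. Control probe sets could not be told apart and stayed in, and 637 probe sets repeat the values of another. No sequences are shown.

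A filter on mean signal left out 6890 probe sets, the lowest 25%, under 3.23. Limma 3.58.1, run in R 4.3.3, fitted 1 mean to each of the 6 groups, with a variance prior following intensity, 13 residual and 4.62 prior degrees of freedom. All tests are two-sided. P-values were adjusted by Benjamini-Hochberg over 20668 probe sets, with a threshold of 0.05. Exact permutation tests used the 70 splits of 8 piglets, so the smallest p is 0.0286. In the lists and among the fixed genes, each symbol was read by its probe set with the highest mean. The largest differences and the smallest interaction p-values were taken from all 10699 tested probe sets with 1 symbol. Named genes were the 15 largest differences in each direction at an unadjusted p under 0.01, up to 8 members of each of 31 lists with the smallest p under 0.05, the 10 smallest interaction p-values, and 53 fixed genes, of which 38 were tested. B2M, IRF3, JAK1, TYK2, MAVS, TMEM173, TRAF3, C1QC, MSR1, MRC1, COL1A1, COL3A1 and the interferon-stimulated genes that missed 0.05 or whose p was not among the 8 smallest were named after their values were seen. The members and lists were chosen with earlier results of these data known. The workflow was tested on simulated data. The alternatives were other filters, scalings, variance priors, array weights and covariates, the fish oil arrays alone, all probe sets of a symbol averaged, and each piglet left out in turn.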

Additional observations from a re-analysis of the deposited data

Results flagged for a closer look

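For each of 104 named genes, both fish oil groups were checked for a piglet far from the other 3, measured as its gap to the nearest one over the group's whole range. Of 208 groups checked 15 passed Dixon's critical value at the 95% level, and chance alone passes about 1 in 20. In the LPS group, piglet 24 had the lowest TLR3 signal, 4.88 against 5.40 to 5.48, and the lowest LOC100157664, 3.22 against 3.71 to 3.80. It had the highest LOC100522627, 6.79 against 5.74 to 5.86, and the highest NOD1, 4.26, where the other 3 shared 3.57. Piglet 20 had the lowest IFIH1, 8.12 against 8.55 to 8.57, and the lowest TAP2, 5.58 against 6.68 to 6.82. Piglet 10 had the highest DCLRE1A, 4.14 against 3.74 to 3.80, and the highest SP110, 5.52 against 5.04 to 5.10.

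In the saline group, piglet 13 had the highest EIF2AK2 (10.12 against 9.73 to 9.79), ANXA1 (7.73 against 7.37 to 7.43) and SBSPON (4.82 against 4.55 to 4.58), and the lowest CYP21A2 (11.20 against 11.47 to 11.48). Piglet 18 had the highest BCL6, 8.19 against 7.35 to 7.42, and the highest TAPBPL, 5.83 against 5.24 to 5.32. Piglet 9 had the lowest RAB30, 4.76 against 4.93 to 4.95.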

How the results depend on the processing

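The labels give no shared replicate numbers, and no paired analysis was possible because each piglet came from its own sow. Under 10 alternative fits and 19 that left out 1 piglet each, 27 to 34 interferon-stimulated genes were lower in fish oil offspring at an unadjusted p under 0.05. These were of 38 tested, or of 36 with the lowest 50% left out. Medians ran from -1.01 to -0.77, and a further alternative, averaging the probe sets of a symbol, gave a median of -0.89. Adjusted calls in fish oil numbered 0 to 2 over the fits that left out 1 piglet. The 2 were TLR3 (adjusted p 0.0172 and 0.0174) and the unnamed probe set 15217337, each time without either microalgae LPS piglet, 7 or 23, where the lone piglet left is assumed to vary like the other groups. The other 10 alternatives gave 0. Leaving out 1 piglet, the count lower in fish oil ran from 499 to 754 and the count higher from 223 to 524 (524 without piglet 20). The higher count was 481 without a filter, 139 with the lowest 50% left out and 477 with the array spread as covariate. For fish oil against control, the interaction had 193 lower and 116 higher with the lowest 50% left out, 499 and 346 with array weights, and 357 higher with the array spread, and 281 to 414 lower and 176 to 279 higher over single piglets. Against microalgae, array weights gave 1162 higher, and leaving out 1 piglet gave 452 to 1187 lower and 309 (without piglet 7) to 1403 higher (without piglet 24). Why these counts moved was not tested, except that a filter changes how many probe sets are tested. The balance of that interaction turned from mostly lower (837 and 658) to mostly higher with median centring (580 and 890), quantile normalization (770 and 864), array weights (1087 and 1162) and without piglet 24. Of 81 named genes at an unadjusted p under 0.05, 0 changed sign in the alternatives that tested them. These 81 were taken for their p in the same comparison, so this is no added support. The unadjusted threshold was missed by 16 of them without piglet 20, by 12 with the chromaffin level as covariate and by 9 with array weights. Signals near 3.23 and the 4 piglets a group limit what could be seen.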

Other observations

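Connective tissue markers lay in the opposite direction to the interferon genes in fish oil offspring. Of 21 fibroblast and capsule markers 19 were higher and 2 lower after maternal LPS (48.9% of all probe sets were lower), by a median of 0.27. Only 1 was higher at an unadjusted limma p under 0.05 (1.39% of all probe sets were higher at that threshold). That one was MFAP5, a microfibril protein, at 4.57, 4.82, 4.99 and 3.43 after LPS and 2.64, 3.82, 3.36 and 2.97 after saline (1.26 ± 0.526), with a saline mean under 3.23, and it missed the threshold without any one of piglets 9, 10, 18, 19 or 20. COL1A1 differed by 0.67 ± 0.61 and COL3A1 by 0.29 ± 0.38, with overlapping groups. The list's mean level ran from 5.34 to 6.51 in LPS and from 5.33 to 6.01 in saline piglets. Of 15 endothelial markers 11 were higher and 4 lower (median 0.10). Ribosomal protein genes were higher in 30 of 36 and lower in 6 (median 0.10). The control diet had the same ribosomal pattern, with 6 lower and a median of 0.09, so it was not particular to fish oil. RPL32 was at 0.34 ± 0.148, past the threshold unless piglet 9, 11, 13 or 20 was left out.

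Lipid and energy genes differed little. The cholesterol exporter ABCA1 was lower (8.23, 8.50, 7.91 and 8.01 against 8.53, 8.44, 9.10 and 8.82, a difference of -0.56 ± 0.172), the 1 of 16 cholesterol genes at an unadjusted limma p under 0.05. Among 18 genes of polyunsaturated fatty acid metabolism and lipid mediators, PLA2G7, which breaks down platelet-activating factor, was higher (0.54 ± 0.239, lost without piglet 10, 13, 18 or 20) with overlapping groups, and 0 were lower at that threshold. Fatty acid oxidation (22 genes), oxidative phosphorylation (34), antioxidant (23), heat shock (26) and ER stress genes (22) had 0 members at an unadjusted limma p under 0.05 in either direction. The stress-induced transcription factor ATF3 was lower without overlap, at 7.71, 7.69, 7.31 and 7.85 against 8.48, 8.01, 8.41 and 8.27 (-0.65 ± 0.231), the only 1 of 20 immediate early genes at that threshold.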
